A study of Mus musculus with 12 samples.

Results

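The nuclear genes of the mitochondrial oxidative phosphorylation system were examined in gastrocnemius, a calf muscle of the hind limb. Members were the genes of the deposited expression table whose symbol begins with Nduf followed by a, b, c, s or v, with Uqcr, with Cox and a digit from 4 to 8, or with Atp5 and a letter, together with Sdha, Sdhb, Sdhc, Sdhd, Cyc1 and Cycs. The rule used symbols and no measured value. It took in 91 of the 10475 genes of the table. Of these, 79 encode subunits of complexes I to V, 11 encode assembly or supercomplex factors that share the name stems, and 1 encodes the electron carrier cytochrome c. Complex I had 36 subunit genes, complex II 4, complex III 9, complex IV 16 and complex V 14.

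The libraries were made from poly(A) RNA of 8-week-old C57BL/6 mice on chow, and 12 of them fall into 4 groups of 3. Transgenic (TG) mice overexpress E4BP4, a transcriptional repressor of the circadian system encoded by Nfil3, in the liver, so the muscle measured here is not the tissue of the transgene, and wild-type (WT) mice served as controls. Each genotype was sampled at the start of the light phase (Zeitgeber time 0, ZT0) and at the start of the dark phase (ZT12). The promoter that drives the transgene, the founder lines and the sex of the mice are not given in the sources used here. The labels do not say that each library came from its own mouse, so p-values measure only the spread between these libraries, which may be technical. Levels are in TPM, transcript abundance scaled for transcript length and for the total of the library, and differences are on the log2(TPM + 1) scale, which understates the change of low genes. In bulk muscle, fewer cells of a type and less RNA per cell cannot be told apart.

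Oxidative phosphorylation passes electrons from NADH (through complex I) and succinate (through complex II) to ubiquinone, then through complex III and cytochrome c to complex IV, which reduces oxygen. Complexes I, III and IV pump protons across the inner mitochondrial membrane, and complex V, the ATP synthase, uses the proton gradient to make ATP. Complexes I, III, IV and V hold subunits of both genomes, while complex II is wholly nuclear. Oxidative muscle fibres are rich in these complexes, and striated muscle carries its own isoforms of several complex IV subunits. The 13 subunits encoded by mitochondrial DNA were not analysed here.

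Recovered from the TPM values, listed genes held 9209445 to 13148791 reads per library at ZT0 and 13125522 to 20155316 reads at ZT12. All 8 skeletal muscle markers were listed, with summed levels of 79705 to 91292 TPM, and 0 of 4 hepatocyte and 0 of 4 brown adipocyte markers were listed. Each listed gene is at 1.0 TPM or more in WT ZT0 replicate 1, so an unlisted marker is not shown to be absent from other libraries. Among the libraries, 2 stood apart. The median gene was at 9.26 TPM in WT ZT0 replicate 2 and at 4.96 TPM in TG ZT12 replicate 1, against 5.63 to 7.25 TPM in the other 10, and values of the 5 highest and 5 lowest members of a contrast that change sign or move by over 1.5 times without either are also given without it.

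The members were among the abundant transcripts of this muscle. Over the 12 libraries their mean levels ran from 1.89 TPM (Cox4i2) to 1211 TPM (Atp5b) with a median of 204 TPM, against a median of 6.65 TPM over the 10415 genes tested. All 91 had at least 1 TPM in every library and all were tested. The median subunit stood at 203 TPM in complex I, 223 in complex II, 319.5 in complex III, 314 in complex IV and 408 in complex V, while the 11 assembly and supercomplex factors had a median of 13.1 TPM.

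**Figure D1:**
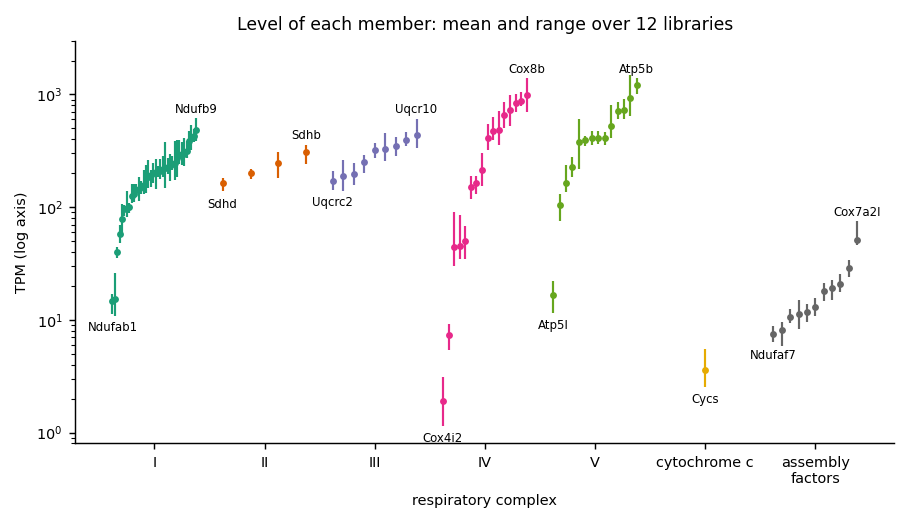
Level of each of the 91 members in TPM (log axis), by complex. Points are means and vertical lines the range over the 12 libraries. Subunits of complexes II and III lie within a narrow band, while complexes I, IV and V each hold a few genes at far lower levels, down to Cox4i2 at 1.89 TPM.

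In complex I, the entry point for NADH, the highest member was the membrane-arm accessory subunit Ndufb9, at 387 to 613 TPM (median 496). Another membrane-arm accessory subunit, Ndufb8, stood at 324 to 534 TPM (median 426). The 7 core subunits, which form the catalytic core, had a median of 182 TPM and the 29 accessory subunits one of 204 TPM. Both Ndufab1, the mitochondrial acyl carrier protein (14.6 TPM), and Ndufb4 (15.4 TPM) lay below the other 34 complex I subunits, whose lowest was Ndufa11 at 39.9 TPM. Ndufab1 has 2 near-identical coding copies and Ndufb4 has 1, so their levels may miss shared reads. In complex II, succinate dehydrogenase, the iron-sulphur subunit Sdhb averaged 307 TPM and the flavoprotein Sdha 245 TPM, above the membrane anchors Sdhc (200.9 TPM) and Sdhd (165 TPM).

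In complex III, Uqcr10 ranged from 337 to 608 TPM (median 426) and the core protein Uqcrc1 from 347 to 468 TPM (median 383). The Rieske iron-sulphur protein Uqcrfs1 ranged from 284 to 419 TPM (median 346). Cyc1, the cytochrome c1 subunit that hands electrons to cytochrome c, averaged 319.5 TPM. The TPM of its mobile partner Cycs was far lower, at 2.56 to 5.47 (median 3.48). Cycs has 4 near-identical coding copies, so its level may miss shared reads. Complex V was led by the F1 subunits Atp5b, the catalytic beta subunit (1009.6 to 1399 TPM, median 1186), Atp5e (641.5 to 1499 TPM, median 909) and Atp5a1, the alpha subunit (611 to 914 TPM, median 706). The widest range over libraries among these was that of Atp5e, whose highest value lay in TG ZT12 replicate 1 and whose lowest in WT ZT0 replicate 2.

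Complex IV holds paralogous subunits, and in the Cox6a, Cox7a and Cox8 pairs the muscle form was the higher in every library. Its most abundant members were Cox8b at 701 to 1395 TPM (median 987), Cox4i1 at 789 to 1042 TPM (median 852) and Cox6a2 at 694 to 1014 TPM (median 849). The muscle isoform Cox6a2 stood at a median of 20.3 times its widely expressed partner Cox6a1, and the muscle isoform Cox8b at 23.8 times Cox8a. Cox7a1, the muscle form of that subunit, was at 3.27 times Cox7a2, with a range of 2.75 to 3.78 over the 12 libraries. Cox4i1 was at 514 times Cox4i2, an isoform known from lung and from hypoxia, and Ndufa4 at 97.8 times Ndufa4l2, its hypoxia-linked paralog. In complex V, Atp5g3 was at 6.84 times Atp5g1, both of which encode the same mature c-ring subunit. Atp5g2, Cox6b2, Cox7b2 and Cox8c, further paralogs of these families, were not analysed here.

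In WT ZT0 replicate 2 the widely expressed isoforms Cox6a1 and Cox8a stood apart, and Cox7a2 did not, being at its lowest of the 12 libraries there (119 TPM). Cox6a1 (chromosome 5, 115345654 to 115348955 on mm10) was at 40.3, 90.6 and 38.8 TPM in WT ZT0, and at 30.2 to 45.2 TPM in the other 9 libraries. Cox8a (chromosome 19, 7215158 to 7217616) was at 50.6, 85.3 and 40.8 TPM in WT ZT0, and at 34.4 to 43.9 TPM in the other 9. Cox7a2l, counted here as a supercomplex factor, was at 74.7 TPM there against 45.8 to 52.4 TPM elsewhere. These 3 members were at their highest of the 12 libraries in that library, where 33 other members were at their lowest. The ratio of Cox6a2 to Cox6a1 was 9.15 in that library against 17.7 to 28.7 in the other 11, and that of Cox8b to Cox8a was 9.71 against 20.1 to 35.0. In the same library Cd74, an antigen presentation gene and the only 1 of 7 lymphoid markers that was listed, stood at 739 TPM against 29.8 to 83.5 TPM in the others, the 7 macrophage markers summed to 299.9 TPM against 60.2 to 184 TPM, and the 7 adipocyte markers to 657 TPM against 217 to 704 TPM. The part of other cell types in the isoform ratios was not tested.

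**Figure D2:**
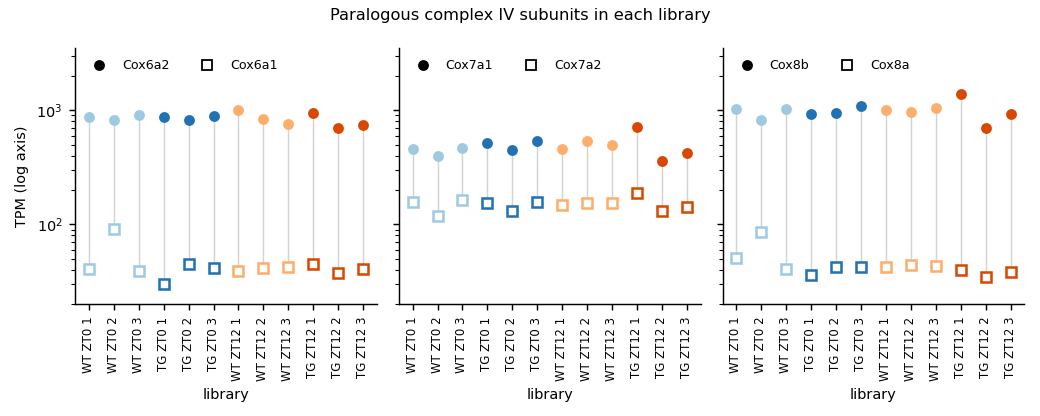
TPM (log axis) of 3 pairs of complex IV paralogs in each of the 12 libraries, named by genotype, time and replicate. Filled circles are the muscle isoforms and open squares their partners. The gap narrows in WT ZT0 replicate 2 for Cox6a2 over Cox6a1 (9.15-fold) and Cox8b over Cox8a (9.71-fold), and not for Cox7a1 over Cox7a2 (3.31-fold).

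RefSeq promoter windows (GRCm38.p6, 250 bases before to 50 after the start) were matched for 75 of the 91 members. The NRF1 core GCGCATGC, bound by a main activator of respiratory chain genes, was present on either strand in 12 of the 75 genes (16.0%) and in 3.05% of all 27025 genes with a window. The YY1 core AAGATGGC was in 12 of the 75 (16.0%) and in 3.19% of all, and the ETS core CCGGAAGT in 5 (6.67%) and 4.31%. The site of oestrogen-related receptors, TCAAGGTCA, was in 2 (2.67%, Atp5g3 and Sdhd) and in 0.466% of all. The D-box TTATGNAA, the element that E4BP4 binds, was in 2 (2.67%, Cox7b and Ndufa5) and in 3.99% of all. The 27025 genes were not limited to the 10415 genes tested, so these shares are not set against other genes expressed in this muscle. The windows of the Cox8 pair are printed because these paralogs differ most in level among the 3 muscle isoform pairs, and those of Cox6a1, Cox7b and Atp5g3 because they hold a motif (in capitals: NRF1, D-box and the receptor site, in that order). Each is the 250 bases before the start, 5′ to 3′ on the gene's strand, and a match is a match of letters, not a shown site. Cox8b is at chr7:140900447-140900696 (minus strand), Cox8a at chr19:7217617-7217866 (minus), Cox6a1 at chr5:115348959-115349208 (minus), Cox7b at chrX:106015450-106015699 (plus) and Atp5g3 at chr2:73911327-73911576 (minus).
Cox8b: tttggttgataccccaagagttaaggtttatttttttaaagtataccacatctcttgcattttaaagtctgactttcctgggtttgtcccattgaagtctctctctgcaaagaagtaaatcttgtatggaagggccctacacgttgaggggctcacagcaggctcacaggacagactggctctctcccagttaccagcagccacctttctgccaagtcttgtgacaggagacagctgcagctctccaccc
Cox8a: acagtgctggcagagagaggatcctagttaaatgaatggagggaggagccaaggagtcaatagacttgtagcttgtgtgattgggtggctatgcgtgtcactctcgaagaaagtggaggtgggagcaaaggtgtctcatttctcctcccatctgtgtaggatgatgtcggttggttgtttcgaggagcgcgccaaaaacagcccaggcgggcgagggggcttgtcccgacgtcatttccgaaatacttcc
Cox6a1: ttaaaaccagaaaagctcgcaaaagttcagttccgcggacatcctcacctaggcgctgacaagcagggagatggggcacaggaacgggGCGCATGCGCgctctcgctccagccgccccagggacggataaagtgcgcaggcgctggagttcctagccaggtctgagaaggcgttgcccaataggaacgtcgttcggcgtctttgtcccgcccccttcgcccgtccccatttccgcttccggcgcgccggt
Cox7b: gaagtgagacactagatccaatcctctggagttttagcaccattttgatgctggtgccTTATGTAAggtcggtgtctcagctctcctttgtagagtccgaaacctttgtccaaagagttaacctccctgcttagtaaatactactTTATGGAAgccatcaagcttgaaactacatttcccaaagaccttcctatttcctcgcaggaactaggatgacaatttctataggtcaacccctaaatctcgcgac
Atp5g3: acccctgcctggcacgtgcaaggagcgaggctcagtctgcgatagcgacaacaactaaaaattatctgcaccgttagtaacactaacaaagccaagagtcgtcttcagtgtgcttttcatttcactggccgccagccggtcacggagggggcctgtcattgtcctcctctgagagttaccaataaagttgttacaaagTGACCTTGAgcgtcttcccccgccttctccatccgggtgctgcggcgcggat
The Cox6a1 match reads the same on both strands, so its letters run on for 10 bases. The windows of Cox8b and Cox8a hold 0 of the 5 motifs in these 250 bases, and Cox8a is counted for the ETS core only because the search took in the 50 bases after the start. Cox7b holds the D-box letters at 2 places. Its level was 205, 156 and 221 TPM in WT ZT0, 228, 202 and 229.8 TPM in TG ZT0, 214, 228 and 227 TPM in WT ZT12, and 301, 175 and 171 TPM in TG ZT12. These groups overlap at both times.

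The summed level varied more among the TG ZT12 libraries than between the means of the groups. The 91 members summed to 23833, 20715 and 24592 TPM in WT ZT0, to 24415, 22716 and 24501 TPM in TG ZT0, to 23581, 25659.5 and 24027 TPM in WT ZT12, and to 29154, 21938 and 20958 TPM in TG ZT12. The group means were 23047 ± 2054, 23878 ± 1007, 24422 ± 1094 and 24017 ± 4476 TPM (SD, n = 3). TG ZT12 thus holds the highest library as well as 2 of the 3 lowest. In TG ZT12 replicate 1 the median member lay 0.29 above its mean over all libraries and 60 of 91 members were at their highest, while the median of all genes tested lay 0.29 below. In WT ZT0 replicate 2 the median member lay 0.18 below, and the median of all genes 0.30 above. The pooled SD within groups of the members' median was 0.15. Summed slow and oxidative fibre markers ranged from 266 TPM (WT ZT0 replicate 3) to 898 TPM (WT ZT12 replicate 3), and the members' medians in these 2 libraries were 0.049 and 0.012 above their means.

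**Figure D3:**
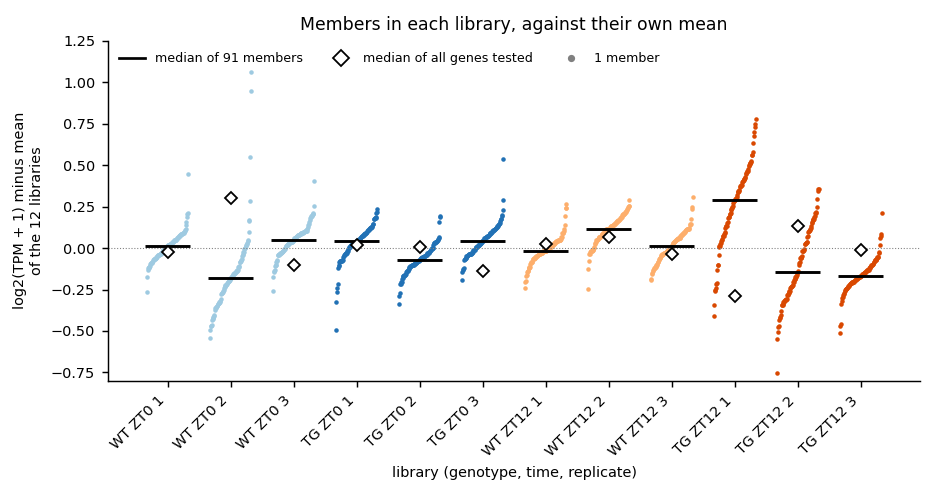
Deviation of each of the 91 members from its own mean over 12 libraries (log2 of TPM + 1), with libraries named by genotype, time and replicate. Black bars are the members' medians and open diamonds the medians of all genes tested. The bar lies 0.29 above 0 in TG ZT12 replicate 1 and 0.18 below in WT ZT0 replicate 2, with the diamonds on the opposite side of 0.

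The deviations followed transcript length most closely in TG ZT12 replicates 1 and 2, in opposite directions. Members are short, with a median of 733 bases against 2599 over all genes tested, and were set in 4 length classes. In TG ZT12 replicate 1 the 23 shortest members (286 to 508 bases) had a median deviation of 0.46 and the 23 longest (1279 to 3627 bases) one of 0.048. In replicate 2 the values were -0.33 and 0.13, and in replicate 3 they were -0.17 and -0.15. Across members, which are not independent, the correlation of deviation with log2 length was -0.63 in replicate 1, 0.75 in replicate 2 and 0.14 in replicate 3. In the other 9 libraries it ran from -0.42 (TG ZT0 replicate 3) to 0.47 (WT ZT12 replicate 2). Over the 3885 other genes of at least 10 TPM on average it was -0.55, 0.44 and 0.33. Short subunits such as Atp5k of the ATP synthase membrane domain (286 bases) show the size of it, at 605, 219.8 and 358 TPM in the 3 TG ZT12 libraries. Long members did not move alike. Sdha (2842 bases) went the other way, at 182, 310.3 and 227 TPM, and Cycs (3054 bases) did not, at 5.47, 4.04 and 3.05 TPM.

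**Figure D4:**
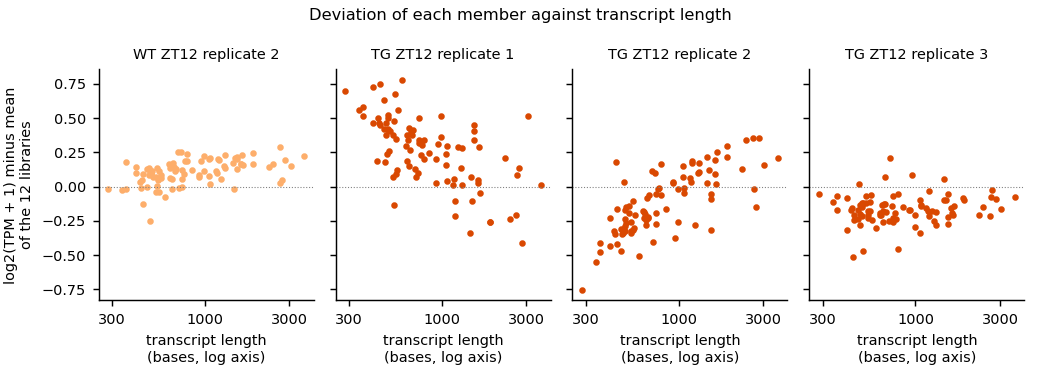
Deviation of each of the 91 members from its mean over 12 libraries (log2 of TPM + 1) against transcript length in bases (log axis), for WT ZT12 replicate 2 and the 3 TG ZT12 libraries. The cloud falls with length in TG ZT12 replicate 1 (r = -0.63), climbs in replicate 2 (r = 0.75), is near flat in replicate 3 (r = 0.14) and climbs less steadily in WT ZT12 replicate 2 (r = 0.47).

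Whether liver E4BP4 goes with a change of these genes in muscle is addressed by TG against WT at each time. At ZT0 limma called 0 of the 91 members at a Benjamini-Hochberg adjusted p under 0.05 over all genes tested (background 0% of 10415 genes), and limma-voom on recovered reads also called 0. The smallest adjusted p of a member was 0.998. Of the members, Cox8a and Atp5s alone had an unadjusted p under 0.05 by limma, beside 117 of the 10415 genes. The median member was 0.054 higher in TG, and 68 stood higher and 23 lower, while the median of all genes was 0.10 lower and 23.5% of genes stood higher. Without WT ZT0 replicate 2 the members' median was -0.036 and 34 stood higher, beside 0.025 and 59.8% higher over all genes. Under upper-quartile scaling, which moved the median of all genes to 0.0059, the members' median was 0.18. The median standard error of a member was 0.15, and the 95% interval lay within 1.5-fold either way for 81 members and within 2-fold for 90.

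By complex the ZT0 medians (TG minus WT) were 0.033 for complex I, 0.11 for complex II, 0.064 for complex III, 0.0297 for complex IV, 0.069 for complex V and 0.071 for the assembly and supercomplex factors. TG and WT libraries did not overlap for 4 members (4.40%), all higher in TG, against 1.4% of all genes, and for 0 members in the lower direction, against 3.22% of all genes. Uqcrc1, a core protein of complex III, was at 378, 347 and 385 TPM in WT and at 445, 391 and 398 TPM in TG, a log2 difference of 0.15 ± 0.12 (SE). Sdhb was at 286, 265 and 298 TPM in WT and at 320.5, 314 and 302 TPM in TG (0.14 ± 0.14), and Ndufaf7, a methyltransferase needed to assemble complex I, at 7.19, 6.82 and 6.86 TPM and at 7.94, 7.22 and 7.47 TPM (0.10 ± 0.14). None of these had an unadjusted p under 0.05 by limma.

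The fourth was Atp5s (chromosome 12, 69724962 to 69744658), named as a coupling factor of the ATP synthase, which had the highest log2 difference of all members. It was at 7.93, 5.91 and 7.10 TPM in WT and at 8.95, 8.37 and 9.23 TPM in TG, a log2 difference of 0.31 ± 0.13 (limma adjusted p = 0.998). Without WT ZT0 replicate 2 the difference was 0.21. Next were Cox7b (0.20), Ndufa5 (0.18), Cox7a1 (0.18) and Uqcr10 (0.18), and each of these overlapped between groups. Without that library they were at 0.046, 0.025, 0.0996 and 0.064, in that order. At the other end were Cox8a and Cox6a1, whose differences shrank without WT ZT0 replicate 2. The log2 difference of Cox8a was -0.47 ± 0.20 (limma adjusted p = 0.998), and still -0.17 without that library. That of Cox6a1 was -0.44 ± 0.26 and -0.046 without it. Ndufb4, a membrane-arm subunit of complex I, was at 20.7, 12.6 and 20.1 TPM in WT and at 12.5, 12.0 and 15.9 TPM in TG. Its log2 difference was -0.36 ± 0.27, and -0.57 without that library. Cox7a2l (-0.15) and Atp5g1 (-0.13) followed, and without that library Cox7a2l was at 0.080, in the other direction.

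**Figure D5:**
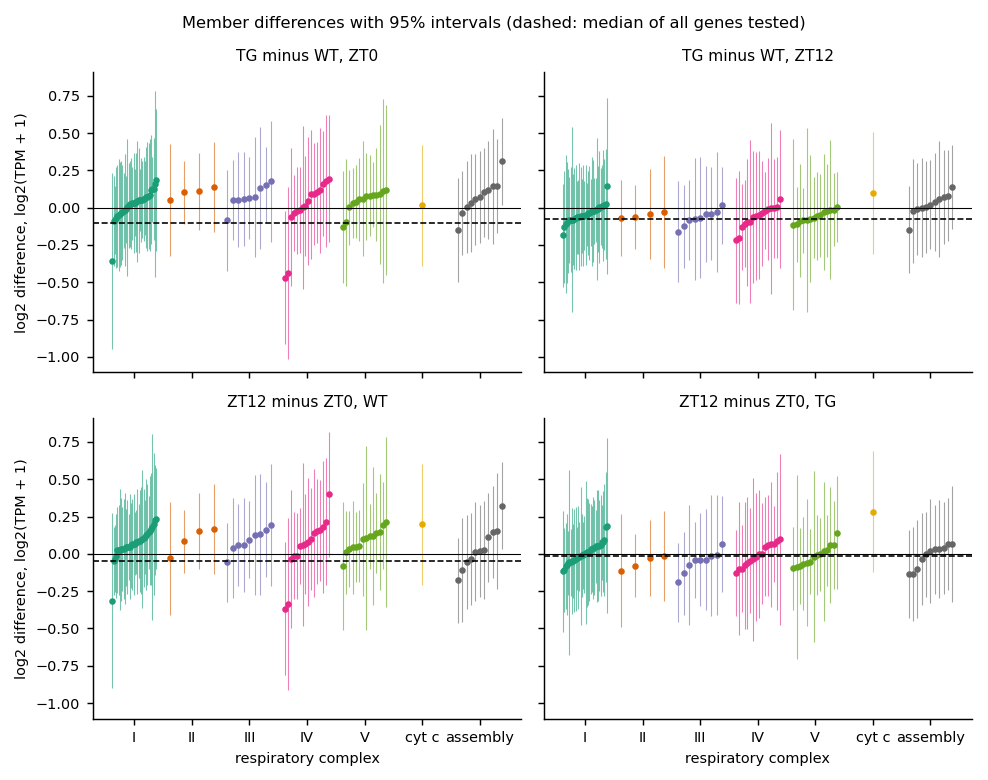
Log2 differences (log2 of TPM + 1) of the 91 members in 4 contrasts, by complex, with 95% intervals from limma. Dashed lines are the medians of all genes tested. All intervals but those of Cox8a and Atp5s at ZT0 and of Atp5s in the WT time contrast cross 0, and the low points of complex IV at ZT0 and in the WT time contrast are Cox8a and Cox6a1, whose differences shrink to -0.17 and -0.046 at ZT0 without WT ZT0 replicate 2.

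At ZT12 limma called 0 of the 91 members between TG and WT (background 0% of genes), as did limma-voom. The count of members at an unadjusted p under 0.05 by limma was 0, beside 99 of the 10415 genes. The median member was 0.047 lower in TG, and 19 stood higher and 72 lower, beside a median of -0.073 and 23.4% higher over all genes. The direction turned with the scaling: the members' median was 0.045 with median-of-ratios factors, 0.023 with upper-quartile scaling and 0.035 with the length trend removed. It also turned without TG ZT12 replicate 2 (0.021) or replicate 3 (0.0401), beside -0.17 and -0.096 over all genes. Without TG ZT12 replicate 1 the median was -0.16, 11 members stood higher, and 26 had an unadjusted p under 0.05 by limma with the smallest adjusted p at 0.965, beside 358 of the 10415 genes and a median of 0.039 over all genes. Leaving out WT ZT0 replicate 2 as well, whose only part here is in the estimate of the spread, gave 35 such members and 773 such genes, of which limma called 2 after adjustment, neither of them a member, and the smallest adjusted p of a member was 0.378.

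Complex medians at ZT12 were -0.051, -0.053, -0.066, -0.052 and -0.062 for complexes I to V, and 0.021 for the assembly and supercomplex factors. No member had TG libraries all above WT (background 0.528% of genes), and 1 had them all below (1.10%, background 4.26%). That member was Cox8a, at 42.5, 43.9 and 43.5 TPM in WT and at 39.8, 34.4 and 38.5 TPM in TG, a log2 difference of -0.20 ± 0.20. Lower still was Ndufa4l2, at 8.76, 8.42 and 8.84 TPM in WT and at 9.23, 5.37 and 7.79 TPM in TG (-0.22 ± 0.19), so that 1 TG library lay above all WT ones. The difference of Ndufa4l2 was -0.37 without TG ZT12 replicate 1 and -0.028 without TG ZT12 replicate 2. The accessory subunit Ndufa1 (-0.19), the complex III subunit Uqcrq (-0.16) and Atp5s (-0.15) were the next lowest, and without TG ZT12 replicate 1 Ndufa1 was at -0.41 and Uqcrq at -0.37. Across the 25 alternatives these were the lowest values of Ndufa1 and Uqcrq, and their highest were -0.056 and -0.045. The highest were Ndufb4 (0.15), the assembly factors Ndufaf8 (0.14), Ndufaf3 (0.081) and Ndufaf5 (0.0697), and Cycs (0.099). All 5 were lower without TG ZT12 replicate 1, where Ndufb4 was at -0.21, Cycs at -0.074, Ndufaf5 at -0.0035, Ndufaf3 at 0.025 and Ndufaf8 at 0.033.

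Over both times, in the additive model, limma called 0 of 91 members (background 0% of genes). Cox8a alone among members had an unadjusted p under 0.05 by limma (166 of all genes). There were 7 such members without TG ZT12 replicate 1 and 26 with both libraries that stood apart left out, beside 262 and 571 genes. Limma-voom also called 0. The median member was 0.0069 higher in TG against -0.089 and 16.2% higher for all genes. It was 0.11 with median-of-ratios factors (all genes -0.0021) and -0.11 with both libraries that stood apart left out (all genes 0.034). The lowest was Cox8a, at -0.33 ± 0.14 (limma adjusted p = 0.929), and at -0.19 without WT ZT0 replicate 2. The others at the low end were Cox6a1 (-0.22, and -0.023 without that library), Uqcrq (-0.12), Ndufa1 (-0.12) and Atp5g1 (-0.11), of which the last 3 were at -0.21, -0.22 and -0.18 without TG ZT12 replicate 1. At the high end stood Ndufaf5 (0.11), Ndufaf2 (0.099), Ndufa5 (0.087), Uqcrc1 (0.084) and Atp5s (0.081). Without WT ZT0 replicate 2 Ndufaf2 was at 0.039, Ndufa5 at 0.0059, Uqcrc1 at 0.056 and Atp5s at 0.011, and without TG ZT12 replicate 1 Ndufaf2 was at 0.034, Ndufa5 at -0.041 and Atp5s at 0.12. The 95% interval lay within 1.5-fold for 89 of the 91 members.

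The second axis of the design is the time of day. In WT, limma called 0 of 91 members between ZT12 and ZT0 (background 0.115% of genes). Atp5s alone among members had an unadjusted p under 0.05 by limma, beside 484 of the 10415 genes. Limma-voom also called 0. The median member was 0.078 higher at ZT12, with 75 higher and 16 lower, against -0.045 and 39.8% higher over all genes. Without WT ZT0 replicate 2 the members' median was 0.021 with 49 higher, below the 0.082 and 72.2% higher over all genes. The members' median was above 0 in each of the 25 alternatives. Every complex had a median above 0, from 0.066 in complex I to 0.12 in complex II, and 6 members (6.59%) had all ZT12 libraries above all ZT0 libraries, against 5.62% of all genes. In the lower direction there were 0, against 5.2% of all genes. At ZT12 the libraries also held more reads and the erythroid markers summed to 245 to 5812 TPM in WT, against at most 222 TPM at ZT0. The 7 fibro-adipogenic markers summed to 474 to 517 TPM at ZT0 and to 640.2 to 712 TPM at ZT12 in WT, also without overlap, and the part of these in the members' levels was not tested.

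The highest WT time difference was that of Ndufa4l2 (chromosome 10, 127514939 to 127517156), at 6.54, 5.93 and 6.55 TPM at ZT0 and 8.76, 8.42 and 8.84 TPM at ZT12 (0.399 ± 0.19, limma adjusted p = 0.99971), with no overlap. Its exons overlap those of Shmt2 on the other strand, and the kit does not keep strand, so reads in the shared stretch cannot be told apart. The size of that stretch is not given here. Atp5s followed at 7.93, 5.91 and 7.10 TPM against 8.43, 9.57 and 8.84 TPM (0.32 ± 0.13, limma adjusted p = 0.949), and at 0.22 without WT ZT0 replicate 2. The others without overlap included Sdhd (0.15), Ndufb3 (0.17) and Ndufa1 (0.086), and Ndufb5 (0.24), Ndufs4 (0.23) and Cox7b (0.22) were next in size and overlapped. Without that library these 3 were at 0.096, 0.063 and 0.067. Cox8a (-0.37, and -0.068 without WT ZT0 replicate 2) and Cox6a1 (-0.34, and 0.056 without it) again held the low end, before Ndufb4 (-0.31, and -0.53 without it), Ndufaf8 (-0.18) and Cox7a2l (-0.11, and 0.12 without it).

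In TG, limma called 0 of 91 members between ZT12 and ZT0 (background 0.154% of genes). Limma-voom also called 0, and no member had an unadjusted p under 0.05 by limma with all libraries in (368 of all genes). Without TG ZT12 replicate 1 there were 16 (731 of all genes), and with both libraries that stood apart left out 27 (1538 of all genes). The members' median was -0.0101, with 38 higher, beside -0.011 and 46.7% higher over all genes, and it changed sign without TG ZT12 replicate 2 (0.048) or 3 (0.073), without TG ZT0 replicate 1 (0.0044) or 3 (0.01003) and with median-of-ratios factors (0.016). Without TG ZT12 replicate 1 it was -0.12, beside 0.099 over all genes. Groups did not overlap for 0 members in either direction, against 3.21% of genes higher and 3.87% lower. Cycs had the highest difference, at 3.60, 3.03 and 2.97 TPM at ZT0 and 5.47, 4.04 and 3.05 TPM at ZT12 (0.28 ± 0.19), followed by Ndufb4 (0.19), Ndufs4 (0.18), Atp5g1 (0.14) and Cox6a1 (0.097). Without TG ZT12 replicate 1 Cycs was at 0.11, Ndufb4 at -0.17, Ndufs4 at 0.0105, Atp5g1 at -0.020 and Cox6a1 at 0.029. Uqcr11, a small subunit of complex III, had the lowest, at 275, 258 and 273 TPM against 288, 201.1 and 225 TPM (-0.19 ± 0.12). Atp5s (-0.14), Ndufaf5 (-0.13), Cyc1 (-0.13) and Cox6a2 (-0.13) followed, and without that library Uqcr11 was at -0.34, Ndufaf5 at -0.21, Cyc1 at -0.063 and Cox6a2 at -0.25.

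Whether the time difference depends on genotype was tested as an interaction, the TG time difference minus that of WT. Limma called 0 of 91 members (background 0% of genes), as did limma-voom. Atp5s alone among members had an unadjusted p under 0.05 by limma (69 of all genes). There were 19 such members without TG ZT12 replicate 1 (259 of all genes) and 11 with both libraries that stood apart left out (334 of all genes). The members' median was -0.097, with 16 above 0, beside 0.029 and 57.2% above 0 over all genes. Its lowest and highest values with 1 library left out were -0.20 (TG ZT12 replicate 1) and -0.0099 (TG ZT12 replicate 2). Over all genes the medians there were 0.15 and -0.061. Atp5s lay lowest, at -0.46 ± 0.19 (limma adjusted p = 0.99987), and at -0.36 without WT ZT0 replicate 2. Atp5s was at 5.91 to 7.93 TPM in WT ZT0, 8.37 to 9.23 in TG ZT0, 8.43 to 9.57 in WT ZT12 and 7.51 to 8.92 in TG ZT12. WT ZT0 and TG ZT12 overlapped. Its ZT0 genotype difference, WT time difference and interaction all use the same WT ZT0 libraries, so they are not independent. Ndufa4l2 (-0.34), Cox7b (-0.29), Cox7a1 (-0.24) and Ndufa2 (-0.24) were next, and Ndufb4 (0.50), Cox6a1 (0.43), Cox8a (0.27), Ndufaf8 (0.17) and Cox7a2l (0.13) were highest. Without WT ZT0 replicate 2 the value of Cox6a1 was 0.041, that of Cox8a was -0.032, that of Cox7a2l was -0.10, that of Cox7b was -0.14 and that of Ndufa2 was -0.021. Without TG ZT12 replicate 1 Ndufb4 was at 0.15, Ndufaf8 at 0.066, Cox7b at -0.56, Cox7a1 at -0.53 and Ndufa2 at -0.63. Without TG ZT12 replicate 2 Ndufa4l2 was at -0.14 and Ndufb4 at 0.73. The interval lay within 1.5-fold for only 54 members and within 2-fold for 86.

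The authors' deposited table for ZT0 gave the members log2 fold changes (TG relative to WT) of -0.13 (Cox8a) to 0.16 (Cox7a1), with a smallest p of 0.238 (Uqcrc1). Their deposited table for ZT12 gave -0.037 (Cox8a) to 0.059 (Ndufs6), with a smallest p of 0.529 (Ndufaf8). Of the 91 members, 83 were above 0 and 0 had p under 0.05 in each of the authors' deposited tables. The same counts over all genes of the authors' tables were not taken, so 83 is not read as a trait of the members. By limma here, 68 members stood higher in TG at ZT0 and 19 at ZT12, so the direction at ZT12 differs. The limma differences at ZT12 also spanned a wider range, from -0.22 to 0.15. They are of TPM without further scaling, and with median-of-ratios factors the members' median at ZT12 was 0.045, above 0. The part of scaling in the differing direction was not tested. Cox8a was the lowest member in both of the authors' tables.

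Other genes of the pathway gave no calls either. Of 43 assembly factors outside the symbol rule, 42 were tested, along with 13 of 14 genes of coenzyme Q synthesis, 14 of 14 of the tricarboxylic acid cycle, 13 of 15 of mitochondrial DNA expression and 10 of 13 of cristae and cardiolipin. Limma called 0 of each list in each of the 6 contrasts, and at most 2 genes of a list had an unadjusted p under 0.05. At ZT0 the tricarboxylic acid cycle genes had a median of 0.0396, with 12 of 14 higher in TG, and at ZT12 one of -0.033 with 2 higher. Idh2, the mitochondrial NADP-dependent isocitrate dehydrogenase, had the largest difference of that list, at 77.9 ± 11.1 TPM in TG ZT0 and 54.1 ± 14 TPM in TG ZT12 (-0.54 ± 0.22, limma adjusted p = 1.000). The assembly factors had medians of 0.0082 at ZT0 and -0.058 at ZT12. Among them Coa4, a complex IV assembly factor, averaged 5.39 ± 0.297 TPM in WT against 4.26 ± 0.364 TPM in TG at ZT0 (SD, n = 3), and 4.49 ± 0.088 against 3.50 ± 0.19 TPM at ZT12 (-0.28 ± 0.082 over both times, limma adjusted p = 0.929). The coenzyme Q methyltransferase Coq3 was at 7.98 TPM in WT ZT0 and 10.9 TPM in WT ZT12 (0.40 ± 0.17). Mterf3, a regulator of mitochondrial transcription, had the largest WT time difference of the DNA expression list (0.29 ± 0.16), and Chchd6 of the cristae complex that of its list (-0.36 ± 0.16).

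The genes whose pattern over the 12 libraries was nearest to the mean of the 79 subunits, outside all lists, were Mpc2, a subunit of the mitochondrial pyruvate carrier (Pearson r = 0.968), Ss18l2 (0.937), the mitochondrial ribosomal protein gene Mrpl12 (0.935), Etfb, the beta subunit of the electron transfer flavoprotein (0.926), and Timm8b of the inner membrane import system (0.925). These libraries share depth and the length pattern described above, and the transcripts of the 5 genes are 512 to 942 bases long, so r is given as a description with no test.

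Part of the levels may miss reads shared with copies. A near-identical coding copy (at least 95% identity over 90% of the coding sequence) was found in GENCODE M21 for 21 of 91 members. These had a median of 163 TPM against 222 TPM for the other 70. Low members among them were Atp5l with 8 copies (16.6 TPM), Cycs with 4 (3.58 TPM), Ndufab1 with 2 (14.6 TPM) and Ndufb4 with 1 (15.4 TPM), and abundant ones were Cox6c with 2 (415 TPM) and Uqcr11 with 2 (254 TPM). No copy was found for other low members such as Cox4i2, Ndufa4l2 and Ndufa11. How the authors' counting treated shared reads is not given in the sources used here. The exons of 29 members overlap a gene on the other strand, such as Ndufs1 with Eef1b2 and Cox6a2 with Itgad. Any shared base counted as an overlap, and only reads in the shared stretches are uncertain.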

How the data were processed

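The TPM of 12 libraries were deposited by the authors for 10475 genes, each at 1.0 TPM or more in WT ZT0 replicate 1. Per the submitters' processing notes, STAR, bcl2fastq, DESeq2, HOMER 4.11.1 and mm10 were used, and the tool that made the TPM values is not given in the sources used here. The 2 deposited comparison tables give the authors' log2 fold change and p-value per gene, and transcript lengths. Their 12 per-library columns are headed FPKM but hold log2 values, and were not used.

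Here log2(TPM + 1) was fitted with limma 3.58.1 (trend, R 4.3.3), with the means of the 4 groups in 1 model and an additive model of genotype and time. The 10415 genes that reached 1 TPM in 3 or more libraries were tested, with Benjamini-Hochberg adjustment over all of them at 0.05. The plan allowed for counts, and the table held TPM, so its second option was used. TPM times length gave whole reads (within 0.1, under 500 reads) for 99.8 to 99.99% of values, and limma-voom was run on them as an alternative. Libraries with the same replicate number were not treated as pairs in the main fit. Over 18 pairs with the same number r ran from -0.35 to 0.29 (median 0.063), beside a median of -0.016 for other numbers. A weak shared effect is not excluded by this.

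Named members were, per complex, the 3 highest in mean TPM and, per contrast, the 5 highest and 5 lowest, up to 4 without overlap, and the paralogs. A member that this rule names is not reported here. Pathway genes were the up to 3 of largest difference per list. The members and lists were chosen with earlier results of these data known. The limma fit was checked on simulated data, with noise drawn separately for each gene and known changes larger than any member difference here. That check does not cover smaller differences or deviations that genes share within a library. Alternatives were other scalings, filters and pseudocounts, the 2 groups alone, a replicate block, the 10 highest genes removed, libraries left out and, added after seeing the data, a length trend removed.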

Additional observations from a re-analysis of the deposited data

How the results depend on the processing

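The count of members called by limma was 0 in each of the 6 contrasts and stayed 0 in each of the 24 or 25 alternatives, the replicate block and limma-voom included. Every median moved by less than the SD between libraries of a group (0.15). That SD is larger than every main median in size, so a median could change sign and still move by less. With 1 library left out, the members' median ran from -0.036 to 0.0897 for TG against WT at ZT0, from -0.16 to 0.0401 at ZT12 and from -0.051 to 0.047 over both times. It ran from 0.021 to 0.11 for ZT12 against ZT0 in WT, from -0.12 to 0.073 in TG, and from -0.20 to -0.0099 for the interaction. The sign was opposite in 2, 5, 5, 0, 5 and 0 of the alternatives, in that order. The replicate block left the medians as they were (0.054 at ZT0, -0.047 at ZT12), and 5 of the 12 had their highest correlation with a library that shares their replicate number. Over all genes tested, the count called for ZT12 against ZT0 was 12 in WT and 16 in TG, against 55 and 31 with median-of-ratios factors, 47 and 29 with upper-quartile scaling, 56 and 28 with limma-voom, 52 and 33 with quantile normalization, 69 and 40 with the length trend removed, and 73 and 71 with both libraries that stood apart left out. The count was 35 in WT without TG ZT12 replicate 1. It fell to 3 in TG with the 2 groups alone, ran from 4 (without WT ZT0 replicate 1) to 35 in WT and from 6 (without TG ZT0 replicate 2) to 21 in TG with 1 library left out. The removal of the length trend was chosen after seeing the data. The smallest adjusted p of a member in any alternative was 0.094, for ZT12 against ZT0 in TG with both libraries that stood apart left out. The precision limits these results: the median standard error was 0.15 within 1 time or genotype and 0.22 for the interaction.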
